A study of Mus musculus with 10 samples.

Results

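Elavl1 and 9 other genes for RNA regulators that support myeloid leukemia were followed through MLL-AF9 leukemia cells with and without induced miR-139. The 10 genes were chosen by function and found by symbol through their Ensembl identifiers, out of 52550 genes in the count table. They were Elavl1, Msi2, Syncrip, Igf2bp2, Igf2bp3, Ybx1, Mettl3, Mettl14, Ythdf2 and Rbm39. All 10 passed the filter of at least 10 counts in total, with 211 to 38707 counts in a single library.

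The cells were bone marrow cells enriched for hematopoietic stem and progenitor cells from C57BL/6 mice. Every group carried a retroviral MLL-AF9 fusion oncogene and a tetR-KRAB repressor, and in every group a lentiviral insert was under doxycycline (DOX) control. MLL-AF9-i139 cells, grown from 3 picked colonies, carried the miR-139 insert, and MLL-AF9-ieGFP cells, from 1 clone, carried eGFP. MLL-AF9-i139 clones 1 and 2 received 5 µg/mL DOX for 48 h and clone 3 for 72 h, each beside an untreated library whose time was not given. For MLL-AF9-ieGFP, a treated and an untreated library were made at 48 h and again at 72 h, so these are culture times of 1 clone. Construct and clone cannot be told apart for MLL-AF9-ieGFP, and clone 3 cannot be told apart from 72 h of DOX. The p-values of MLL-AF9-i139 rest on the spread between 3 clones, or, with a term for clone, on how their DOX changes differ. Those of MLL-AF9-ieGFP and of the difference between constructs use 1 estimate of spread shared by all 10 libraries.

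RNA-binding proteins decide how long an mRNA lives, where it is spliced and how often it is translated. N6-methyladenosine (m6A), a methyl mark on adenosines of mRNA, is written by the METTL3 and METTL14 methyltransferase complex, removed by FTO and ALKBH5, and read by YTH and IGF2BP proteins. Several of these proteins keep myeloid leukemia cells immature and growing by acting on mRNAs such as MYC and HOXA9. A microRNA pairs through its seed, a short stretch near its 5′ end, with sites in 3′ untranslated regions (UTRs) and lowers the mRNA or its translation.

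Total counts ranged from 35133308 to 47089725 per library, of which the 10 genes took 0.204% to 0.260%. Mir139 was listed at 0 counts in all 10 libraries, so these counts do not check the induction label. Myeloid progenitor markers dominated, with a summed level of 2546 to 6333 CPM (counts scaled to library size and TMM-normalized), whereas T cell, B cell and stromal lists summed to at most 5.23 CPM. The mature neutrophil list summed to 128 to 396 CPM. Of the 8 genes on the myeloid progenitor list, 7 had at least 10 counts, and Cd34 among them did not exceed 0.418 CPM. No level was read for Itgam, the other gene on that list. With DOX, MLL-AF9-i139 clones 1 and 2 resembled each other more than either resembled clone 3, with a chi-square per gene of 24.8 between them against 96.9 and 112. Results are therefore also given without clone 3. Because clone 3 was set apart in these same data, a pass without it is not independent support. Without a clone term, leaving out clone 3 gave 3981 genes at an edgeR adjusted p under 0.05. Leaving out clone 1 gave 1 and leaving out clone 2 gave 0.

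Both mature arms of miR-139 are shown because their seeds decide which letters to look for in the UTRs. They are RefSeq sequences of GRCm38.p6, on the plus strand of chromosome 7 at chr7:101475382-101475403 and chr7:101475418-101475439. Capitals mark the seed, positions 2 to 8 from the 5′ end. The arms share no seed.
mmu-miR-139-5p: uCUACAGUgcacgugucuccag
mmu-miR-139-3p: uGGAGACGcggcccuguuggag

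The longest annotated 3′ UTR of each gene (GENCODE M21, GRCm38) was searched on the transcript strand for ACTGTAG or CTGTAGA, the letters that pair with miR-139-5p, and for CGTCTCC or GTCTCCA, those that pair with miR-139-3p. In each pair the first set matches the whole seed (a 7mer-m8), the other ends in an A after the first bases of the seed (a 7mer-A1), and where they overlap the site is an 8mer. Of 13995 UTRs of tested genes, 21.7% held a miR-139-5p match, 15.9% a miR-139-3p match and 31.8% either. Of the 10 genes, 4 held either. The sites are shown with capitals on the matched letters, because they are the candidate pairing sites of the induced microRNA in these mRNAs.
Elavl1, miR-139-3p, chr8:4289199-4289227, minus strand: tttcatctgatGTCTCCAcagactggatt
Elavl1, miR-139-3p, chr8:4287264-4287292, minus strand: ctttctgtgtgGTCTCCActgtctgggta
Msi2, miR-139-5p, chr11:88342825-88342853, minus strand: cattaaagcatACTGTAGtgtggatatat
Msi2, miR-139-3p, chr11:88342589-88342617, minus strand: tcacacgacaaGTCTCCAaaaaaaaaaag
Syncrip, miR-139-5p, chr9:88451493-88451521, minus strand: aacttaaatttCTGTAGAaaaatcagtat
Mettl14, miR-139-5p, chr3:123374325-123374353, minus strand: ttttattagctCTGTAGAaaattccatca
Mettl14, miR-139-5p, chr3:123371671-123371700, minus strand: gtatttgagtgACTGTAGAagggaaaaatg
Mettl14, miR-139-3p, chr3:123368717-123368745, minus strand: aaggcatgtatGTCTCCAggtcggagtgt

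Elavl1 had no miR-139-5p match in its 4218-base UTR, a length at which 54.3% of UTRs within 20% of it held one. Its 2 miR-139-3p matches both lacked pairing to the last base of the seed, and 36.6% of UTRs of that length held a miR-139-3p match. Syncrip held 1 miR-139-5p 7mer-A1 in 7245 bases, where 68.9% of UTRs of like length held a match. Mettl14, with 6439 bases, was the gene among the 10 with the 8mer. Igf2bp2, Igf2bp3, Ybx1, Mettl3, Ythdf2 and Rbm39, with UTRs of 171 to 2119 bases, held none of these letters, which says only that the letters are absent from those windows.

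**Figure D1:**
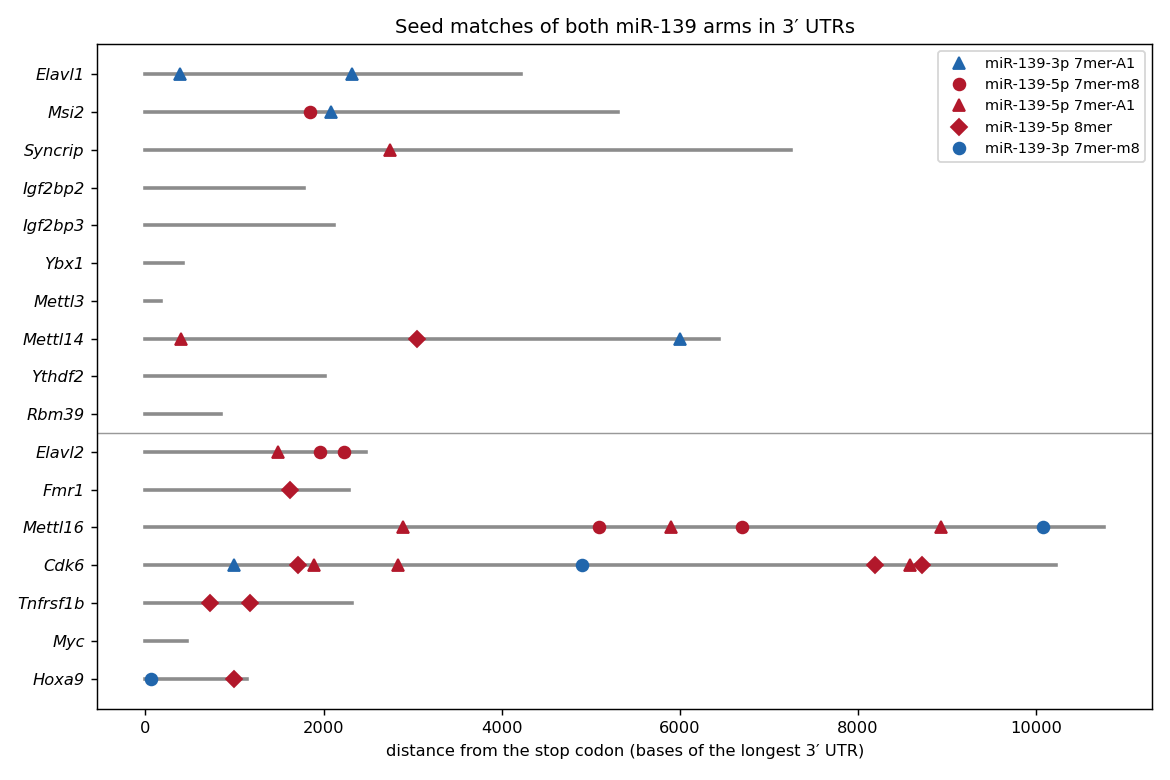
Positions of miR-139 seed matches in the longest 3′ UTR of the 10 genes and, under the line, of 7 other genes named by their test, plotted as bases from the stop codon; grey bars are the UTRs, red marks miR-139-5p and blue marks miR-139-3p, with the mark's shape giving the site type. Elavl1 shows 2 blue marks and no red one, whereas Elavl2 shows 3 red ones.

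The levels of the 10 genes spanned more than 2 orders of magnitude when CPM were divided by exon length. In the 3 untreated MLL-AF9-i139 clones, Ybx1, a cold shock domain protein that binds mRNA, stood first at 323 ± 23.1 CPM per kb of exons (SD, n = 3). Rbm39, a splicing factor, followed at 58.8 ± 5.79 and Ythdf2, the m6A reader that hands mRNAs to decay, at 38.6 ± 0.593. Igf2bp3 stood at 33.1 ± 0.551, Msi2 at 28.7 ± 3.78, Elavl1 at 23.0 ± 0.313 and Syncrip at 18.3 ± 1.38 CPM per kb of exons. Mettl14 at 5.66 ± 0.196 and Mettl3 at 4.75 ± 0.169 came next, and Igf2bp2 was last at 1.33 ± 0.534. The ranges of the 3 clones did not overlap between any neighbours in this order.

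The order depends on what length the reads cover. Rbm15b and Srsf2, whose whole bodies lie inside other genes, were listed at 0 in every library, although only 1.37% and 25.3% of their exon bases lie in exons of another gene. Which reads were counted, by exon or by gene body and with or without strand, was not given in the sources used here. Per kb of gene body, Msi2 moved from place 5 to 9, Igf2bp3 from 4 to 8 and Syncrip from 7 to 4, while Ybx1, Rbm39, Ythdf2 and Igf2bp2 kept places 1, 2, 3 and 10. Mettl14 and Mettl3 lay at 2.36 ± 0.0815 and 2.34 ± 0.0835 CPM per kb of body, a gap smaller than their spread. Of the exon bases of Syncrip, 67.7% lie inside Gm20537 on the same strand, but only 2.80% lie in its exons. Mettl3 shares 18.4% of its exon bases with Tox4 and Igf2bp3 18.7% with Malsu1, both on the opposite strand, so reads there cannot be assigned with certainty.

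**Figure D2:**
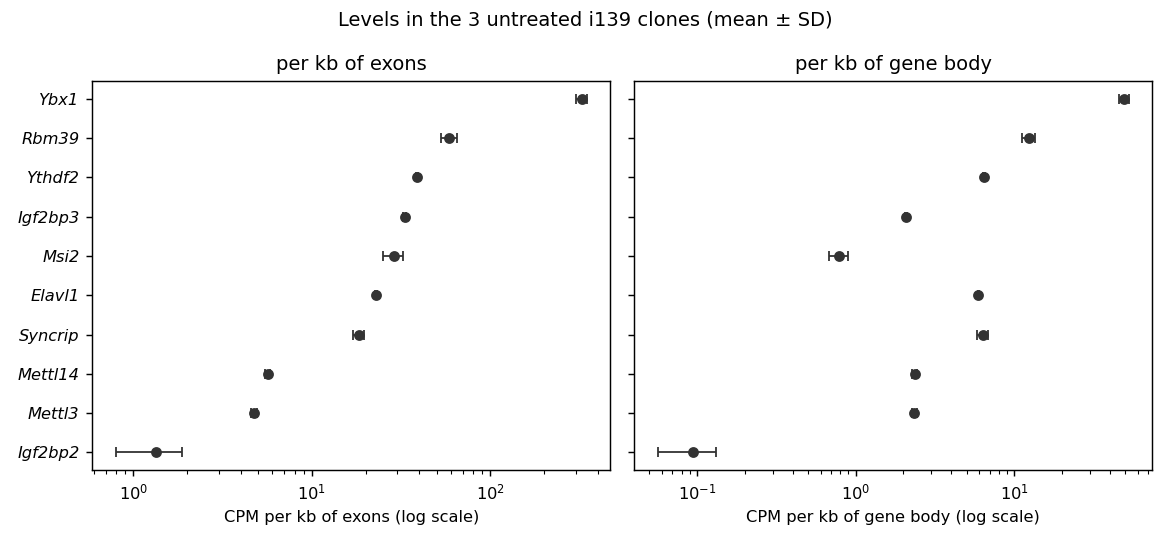
Levels of the 10 genes in the 3 untreated MLL-AF9-i139 clones (mean and SD), as CPM per kb of exons on the left and per kb of gene body on the right, both on log axes. Ybx1 is highest and Igf2bp2 lowest on both scales, while Msi2 and Igf2bp3 drop on the right.

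Elavl1 (ENSMUSG00000040028, chr8:4285382-4325413) encodes HuR, which binds AU-rich elements and stabilizes the mRNAs that carry them. Its normalized CPM were 236, 242 and 236 in untreated MLL-AF9-i139 clones 1, 2 and 3, and 205, 206 and 228 with DOX. The 3 treated libraries lay below the 3 untreated ones, with clone 3 closest to them. At 48 h and 72 h, the MLL-AF9-ieGFP libraries read 243 and 259 CPM untreated and 238 and 245 CPM treated. Elavl1 thus changed by -0.15 ± 0.087 on the log2 scale in MLL-AF9-i139 (SE, n = 3 clones; 95% interval -0.35 to 0.05), which did not pass (edgeR adjusted p = 0.375, and 0.238 with a clone term). In clones 1 and 2 alone, with the clone term, the change was -0.20 with an adjusted p of 0.0119 by edgeR, in a fit that called 43.4% of all genes, whereas it missed without clone 1 or without clone 2 (adjusted p = 0.683 and 0.747). The change in MLL-AF9-ieGFP was -0.06 ± 0.093, and the difference between the constructs was -0.10 ± 0.12 (edgeR interaction, adjusted p = 0.794). A fall of Elavl1 by more than 21.4% lies outside the interval of the 3-clone fit.

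**Figure D3:**
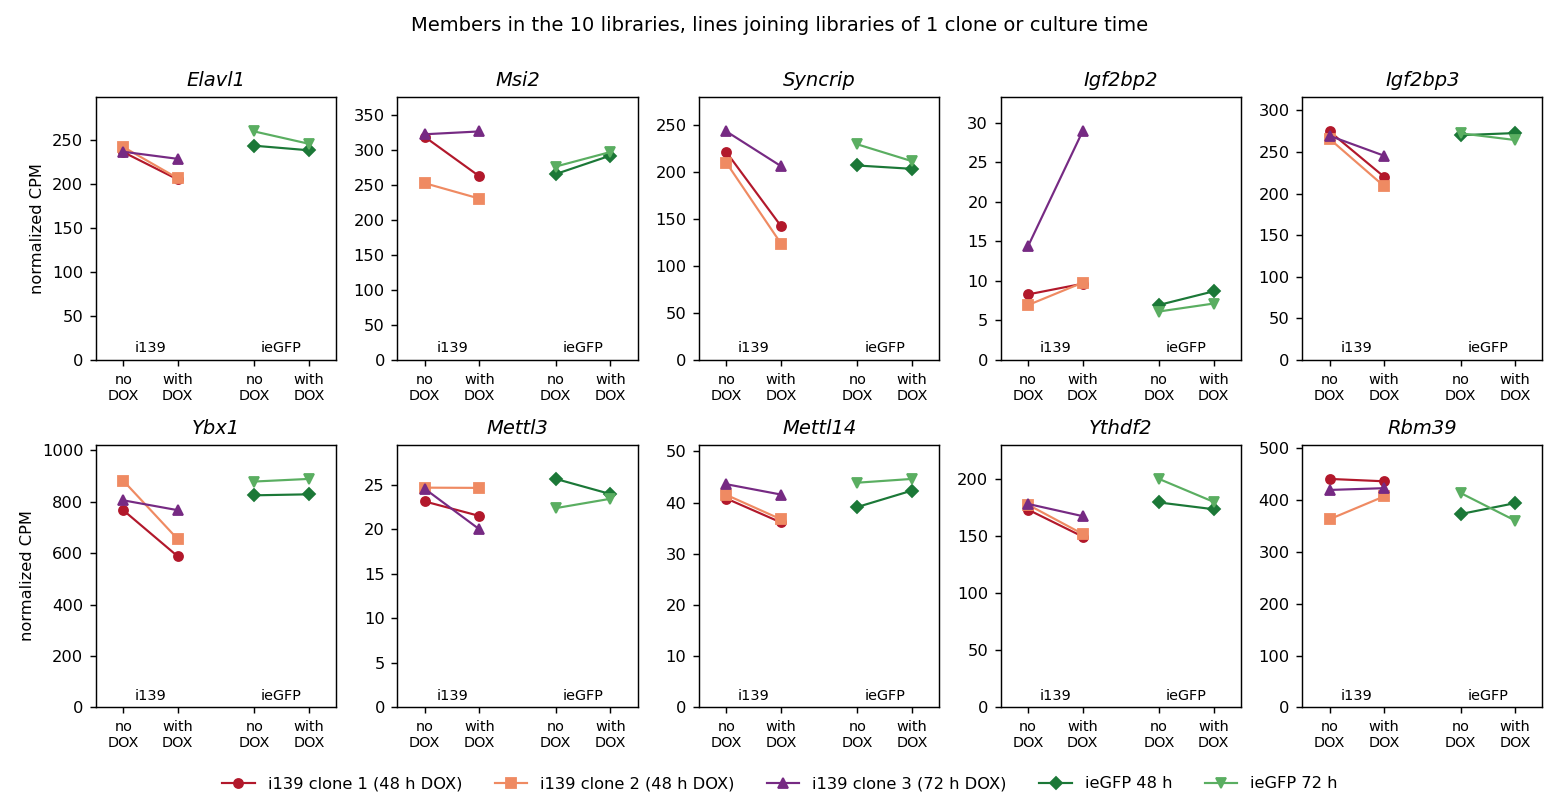
Normalized CPM of each gene in the 10 libraries, on axes that start at 0; lines join the libraries of 1 MLL-AF9-i139 clone or 1 MLL-AF9-ieGFP culture time without and with DOX. Syncrip drops in all 3 MLL-AF9-i139 clones, from 210 to 244 CPM down to 124 to 207 CPM, while its MLL-AF9-ieGFP lines stay between 204 and 230 CPM.

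Among 8693 genes with a mean log2 CPM of at least 3, those whose log2 CPM tracked Elavl1 most closely over the 10 libraries were Zfp64 (Pearson's r = 0.991), Pptc7 (0.990) and Ercc6l (0.989). Zfp64 encodes a zinc finger transcription factor, Pptc7 a mitochondrial phosphatase and Ercc6l a mitotic DNA translocase. Zfp64 read 57.5 to 62.1 CPM in untreated MLL-AF9-i139 clones and 44.3 to 53.8 CPM with DOX. Ythdf2 stood at place 12 in this list (r = 0.984) and Ybx1 at place 374 (r = 0.946), whereas Rbm39 had an r of -0.431. The 10 points share clones and the DOX contrast, so r is a description only.

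Msi2 and Syncrip encode RNA-binding proteins that cooperate in leukemia stem cells: Musashi-2 sustains self-renewal, and SYNCRIP binds many of the same mRNAs. Msi2 (ENSMUSG00000069769, chr11:88339382-88718513) read 319, 253 and 323 CPM in untreated MLL-AF9-i139 clones 1 to 3 and 263, 231 and 327 CPM with DOX. The groups overlapped, and clone 3 did not go down. On the log2 scale Msi2 differed by -0.11 ± 0.15 (edgeR adjusted p = 0.714), and in MLL-AF9-ieGFP it was 0.12 ± 0.16.

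Syncrip (ENSMUSG00000032423, chr9:88447009-88482574) had the most negative change of the 10 genes. It read 222, 210 and 244 CPM in the untreated clones 1, 2 and 3 and 143, 124 and 207 CPM with DOX, so every treated library lay below every untreated one. Clones 1 and 2 moved by -0.63 and -0.76 on the log2 scale and clone 3 by -0.24. Over the 3 clones the change was -0.50 ± 0.18 (95% interval -0.91 to -0.09) and missed the threshold in the edgeR fit without a clone term (adjusted p = 0.180). With the clone term it was -0.53 ± 0.11 and passed (edgeR adjusted p = 0.0314). Without clone 3 and without a clone term it also passed (-0.67, edgeR adjusted p = 0.00373), whereas with the clone term it missed without clone 1 (-0.50, adjusted p = 0.131) and without clone 2 (-0.42, adjusted p = 0.142). The MLL-AF9-ieGFP libraries read 207 and 230 CPM untreated and 204 and 212 CPM treated, a log2 change of -0.07 ± 0.19. The difference between the constructs was -0.44 ± 0.25 (edgeR interaction, adjusted p = 0.606), and without clone 3 it was -0.59 with an edgeR adjusted p of 0.0218. The overlapping gene Gm20537 read 15.5, 9.55 and 16.0 CPM without DOX and 8.65, 7.12 and 18.3 CPM with DOX, far below Syncrip in every library. That gap does not show whether Syncrip reads in the shared part, 67.7% of its exon bases, were counted, which was not tested.

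The IGF2BP proteins read m6A and stabilize their mRNAs. Igf2bp3 (ENSMUSG00000029814, chr6:49085223-49214957), the family member linked to MLL-rearranged leukemia, read 275, 266 and 269 CPM without DOX and 220, 209 and 245 CPM with DOX. The groups did not overlap, and all 3 clones read lower with DOX. Igf2bp3 differed by -0.25 ± 0.093 on the log2 scale (95% interval -0.47 to -0.04; edgeR adjusted p = 0.188, and 0.0769 with the clone term). Without clone 3 it passed the threshold (-0.31, edgeR adjusted p = 0.0398), in a fit that called 21.7% of all genes. It missed without clone 1 or without clone 2 (edgeR adjusted p = 0.710 and 0.742). The 4 MLL-AF9-ieGFP libraries lay between 264 and 273 CPM.

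Igf2bp2 (ENSMUSG00000033581, chr16:22059009-22163299) had the most positive change and the lowest counts of the 10 genes. It read 8.28, 6.93 and 14.3 CPM without DOX and 9.63, 9.76 and 28.9 CPM with DOX. Clone 3 was the highest library in both groups, so the groups overlapped although each clone read higher with DOX. The fitted change was 0.72 ± 0.46 on the log2 scale (edgeR adjusted p = 0.415) and, with the clone term, 0.59 ± 0.16 (adjusted p = 0.0566). Without clone 3 it was 0.37 (edgeR adjusted p = 0.194, and 0.0212 with the clone term). Both MLL-AF9-ieGFP times also read higher with DOX, 8.67 and 7.13 CPM against 6.95 and 6.12 CPM, a log2 change of 0.27 ± 0.51 that did not pass either.

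Ybx1 (ENSMUSG00000028639, chr4:119277981-119294604) read 768, 882 and 806 CPM without DOX and 588, 654 and 767.4 CPM with DOX. The highest treated library, clone 3, lay just under the lowest untreated one at 767.5 CPM. Its log2 fold change was -0.28 ± 0.12 (edgeR adjusted p = 0.245, and 0.0834 with the clone term), and without clone 3 it was -0.39 and passed (edgeR adjusted p = 0.0434). That fit called 21.7% of all genes, and Ybx1 missed without clone 1 or without clone 2 (edgeR adjusted p = 0.710 and 0.764). In MLL-AF9-ieGFP, Ybx1 read 825 and 879 CPM untreated and 829 and 889 CPM treated, a log2 change of 0.01 ± 0.13. Its pseudogene Ybx1-ps2, with 901 counts in total against 325172, could share reads with it.

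Among the 10 genes, the m6A genes Mettl3, Mettl14 and Ythdf2 did not pass over the 3 clones, with or without a clone term. Mettl3 (ENSMUSG00000022160, chr14:52294841-52305128), the catalytic subunit of the writer, read 23.1, 24.7 and 24.5 CPM without DOX and 21.5, 24.6 and 20.0 CPM with DOX, and the groups overlapped. Its log2 fold change was -0.12 ± 0.12 (edgeR adjusted p = 0.635), and unlike most of the other genes its largest change was in clone 3. Mettl14 (ENSMUSG00000028114, chr3:123368297-123386108), the RNA-binding partner of METTL3, read 40.8, 41.5 and 43.6 CPM without DOX and 36.1, 36.7 and 41.6 CPM with DOX. Its log2 fold change was -0.13 ± 0.10 (95% interval -0.37 to 0.11; edgeR adjusted p = 0.531). Ythdf2 (ENSMUSG00000040025, chr4:132184912-132212303) read 173, 178 and 178 CPM without DOX and 150, 152 and 168 CPM with DOX, with no overlap. Its log2 fold change was -0.16 ± 0.088 (95% interval -0.36 to 0.04; edgeR adjusted p = 0.336).

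Rbm39 (ENSMUSG00000027620, chr2:156147239-156180238), which the DCAF15 ubiquitin ligase destroys when sulfonamide drugs are present, read 441, 363 and 420 CPM without DOX and 437, 407 and 423 CPM with DOX. The treated libraries lay within the range of the untreated ones. Rbm39 differed by 0.06 ± 0.10 on the log2 scale (95% interval -0.17 to 0.30; edgeR adjusted p = 0.774), and -0.06 ± 0.11 in MLL-AF9-ieGFP.

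**Figure D4:**
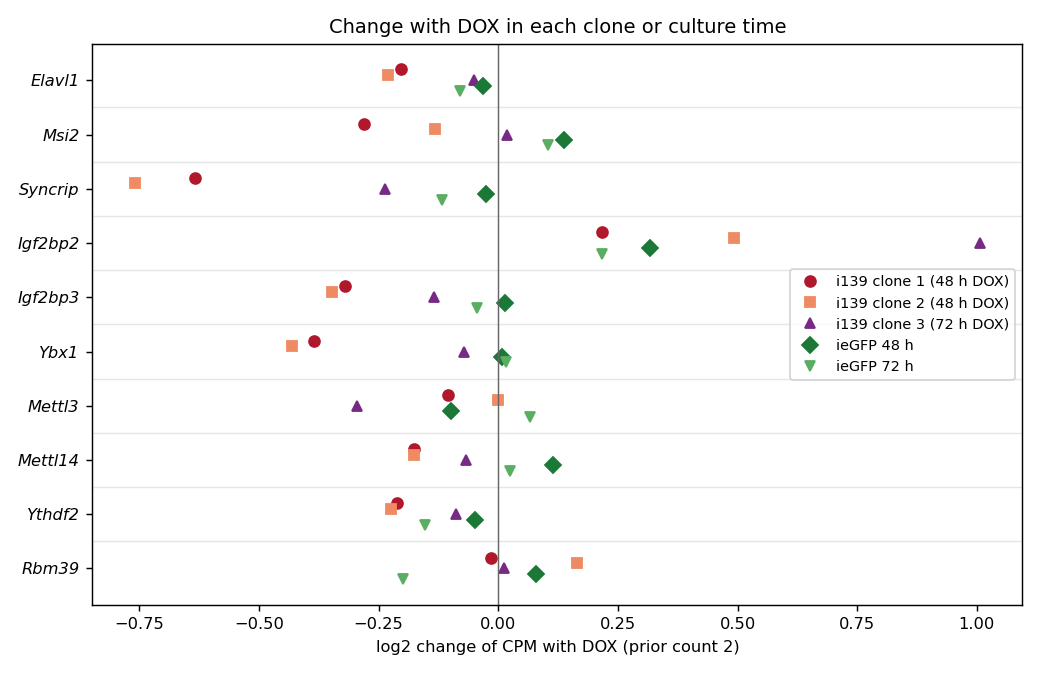
Change of log2 CPM with DOX in each MLL-AF9-i139 clone and at each MLL-AF9-ieGFP culture time, with a prior count of 2. For 8 of the 10 genes the purple triangle of clone 3 lies closer to 0 than clones 1 and 2, and the green MLL-AF9-ieGFP marks lie between -0.20 and 0.32.

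Counted together, 0 of the 10 genes passed an adjusted p of 0.05 in MLL-AF9-i139 by edgeR without a clone term, where 0.0624% of 19223 tested genes passed (0.0572% higher and 0.0052% lower). At an unadjusted p under 0.05 there were 2, Syncrip and Igf2bp3, beside 3959 of all 19223 tested genes. DESeq2 called 0 of the 10, beside 1556 of all tested genes. With the clone term 1 of the 10, Syncrip, passed, beside 12.4% of all genes (7.05% higher and 5.33% lower), and without clone 1 or clone 2 that fit called 0. The treated and untreated libraries did not overlap for 5 genes, Elavl1, Syncrip, Igf2bp3, Ybx1 and Ythdf2, all lower with DOX, where 12.8% of all tested genes were lower without overlap and 24.9% in either direction. Of the 10, 7 were lower in all 3 clones (26.5% of all tested genes) and 1, Igf2bp2, higher in all 3 (27.2%). The median log2 fold change of the 10 was -0.14, beside 0.01 over all tested genes. The change was smallest in clone 3 for 8 of the 10 and for 56.7% of all tested genes.

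Without clone 3 the edgeR fit called 3 of the 10 genes, Syncrip, Igf2bp3 and Ybx1, all lower, with 10.1% of all tested genes lower. With the clone term and without clone 3 it called 8, and the exceptions were Mettl3 and Rbm39, in a fit that called 43.4% of all genes (22.5% higher and 20.9% lower) and leaves 1 residual degree of freedom. The summed myeloid progenitor markers were higher with DOX in MLL-AF9-i139, at 4080 to 6333 CPM against 2546 to 4017 CPM without DOX. In MLL-AF9-ieGFP they summed to 2702 to 3427 CPM untreated and 3056 to 4505 CPM treated. Of the 7 with at least 10 counts, 0 passed without the clone term by edgeR. At an unadjusted p under 0.05 there were 5, and 4 passed by DESeq2, beside 3959 and 1556 of all 19223 tested genes. With the clone term 5 rose, beside 7.05% of all genes, Cd34 among them at no more than 0.418 CPM. Elane and Kit did not pass, and both read lower with DOX in clones 1 and 2. Elane read 1090, 1315 and 2004 CPM in untreated clones 1 to 3 and 913, 1013 and 2669 CPM with DOX. The summed mature neutrophil markers read 189 to 318 CPM with DOX in MLL-AF9-i139, against 128 to 221 CPM without. Of 6 tested, 0 passed by edgeR without the clone term and 1, Ngp, with it, beside 12.4% of all genes. The summed macrophage markers read 8.05 to 22.1 CPM with DOX in MLL-AF9-i139, against 7.20 to 9.51 CPM without. Of these, Adgre1 read 1.97, 1.46 and 0.786 CPM in untreated clones 1 to 3 and 9.19, 3.66 and 0.787 CPM with DOX. Cd68 read 7.52, 5.77 and 6.36 CPM untreated and 12.9, 11.7 and 7.24 CPM with DOX. C1qa, C1qc and Marco were at 0. By edgeR 0 of 3 tested macrophage markers passed, with or without the clone term, and by DESeq2 1 did. The part of such a shift in the results above was not tested, and in bulk RNA fewer cells of a type and less RNA per cell cannot be told apart.

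In the MLL-AF9-ieGFP control, 0 of the 10 genes passed by edgeR, where 0% of 20269 tested genes passed; 0 passed at an unadjusted p under 0.05 and 0 by DESeq2. The log2 changes ranged from -0.10 for Ythdf2 to 0.27 for Igf2bp2. The interaction of DOX with construct also called 0 of the 10, beside 0.00493% of all genes, with 0 at an unadjusted p under 0.05 and 0 by DESeq2. The 95% interval of the interaction was -0.99 to 0.11 for Syncrip, and -0.81 to -0.14 with a clone or culture time term, where its edgeR adjusted p was 0.146.

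The other genes of these pathways were counted on 6 lists of 42 genes chosen by function, of which 37 were tested in MLL-AF9-i139. By edgeR without a clone term 0 passed, with 8 at an unadjusted p under 0.05, beside 3959 of all 19223 tested genes. DESeq2 called 4 (Fmr1, Elavl2, Mettl16 and Cdk6), beside 1556 of all tested genes. With the clone term 7 passed, 6 lower and 1 higher, beside 12.4% of all genes. That count was 0 without clone 1, 2 (Elavl2 and Fmr1) without clone 2 and 23 without clone 3. Of all tested genes, 324, 580 and 7974 passed in these 3 fits. The median log2 fold change of the 37 was -0.10.

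Of the other m6A writer genes, 1 of 6 tested passed with the clone term, and 0 without it, over the 3 clones by edgeR. With the clone term, 12.4% of all genes passed. Mettl16, a separate methyltransferase for the MAT2A mRNA and U6 RNA, read 160, 160 and 168 CPM without DOX and 85.1, 89.7 and 137 CPM with DOX. Its log2 fold change was -0.63 ± 0.18 (edgeR adjusted p = 0.125, and 0.0282 with the clone term). Without a clone term Mettl16 passed by DESeq2 (adjusted p = 0.0237), with all 10 libraries in the edgeR fit (adjusted p = 0.0383) and without clone 3 (-0.85, adjusted p = 7.41e-04). The other 5 ranged from -0.13 to 0.16, and Rbm15b was listed at 0. Neither eraser passed: Fto was at -0.10 ± 0.097 and Alkbh5 at 0.15 ± 0.11 on the log2 scale (edgeR adjusted p = 0.598 and 0.455).

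Of the other readers, 1 of 7 passed with the clone term, beside 12.4% of all genes, and 0 without it, over the 3 clones by edgeR. Fmr1, which encodes the translation regulator FMRP, read 152, 133 and 163 CPM without DOX and 89.1, 81.4 and 118 CPM with DOX. The clones moved by -0.77, -0.71 and -0.47 on the log2 scale, and the groups did not overlap. Fitted over the clones the change was -0.63 ± 0.15 (edgeR adjusted p = 0.113, and 0.0198 with the clone term). Without a clone term Fmr1 passed by DESeq2 (adjusted p = 0.0111), with no filter on low counts (edgeR adjusted p = 0.0454), with all 10 libraries in the fit (0.0291) and without clone 3 (-0.72, adjusted p = 0.00290). Its UTR held 1 miR-139-5p 8mer, and 34.4% of UTRs of like length held a miR-139-5p match. Other listed genes that did not pass over the 3 clones also held such an 8mer. The Fmr1 site is shown because it matches all letters searched for miR-139-5p.
Fmr1, miR-139-5p, chrX:68717286-68717315, plus strand: cagtttaaaatACTGTAGAtaattaaccaa

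Of 9 listed paralogs of the 10 genes, 7 were tested in MLL-AF9-i139 and 1 passed, with the clone term, beside 12.4% of all genes. Elavl2 (ENSMUSG00000008489, chr4:91250763-91400785) is a paralog of Elavl1 best known from neurons. It read 435, 338 and 363 CPM without DOX and 135, 124 and 300.5 CPM with DOX. Clones 1 and 2 moved by -1.69 and -1.44 on the log2 scale and clone 3 by -0.27. The change over the 3 clones was -1.01 ± 0.31 (edgeR adjusted p = 0.143, and 0.0355 with the clone term), and without clone 3 it was -1.55 (edgeR adjusted p = 3.83e-04). The MLL-AF9-ieGFP libraries read 370 and 336 CPM untreated and 398 and 371 CPM treated, and the interaction was -1.14 ± 0.43 (edgeR adjusted p = 0.527).

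Untreated, Elavl2 stood at 45.6 ± 6.06 CPM per kb of exons against 23.0 ± 0.313 for Elavl1, but at 2.52 ± 0.336 against 5.94 ± 0.0811 per kb of gene body. The Elavl2 UTR of 2477 bases held 3 miR-139-5p matches and no miR-139-3p match, the reverse of Elavl1, and 36.2% of UTRs of like length held a miR-139-5p match. They are shown to set beside the Elavl1 sites above.
Elavl2, chr4:91251736-91251764, minus strand: gctaattctgtCTGTAGAtagtctagctt
Elavl2, chr4:91251264-91251292, minus strand: tattatttaaaACTGTAGttataaaaatt
Elavl2, chr4:91250998-91251026, minus strand: tttcctgtgctACTGTAGcaaaccacagc

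The remaining paralogs did not pass over the 3 clones. Ybx3 read 384, 417 and 450 CPM without DOX and 206, 239 and 432 CPM with DOX, so clones 1 and 2 were low and clone 3 was not (log2 fold change -0.50 ± 0.25; edgeR adjusted p = 0.298, and 0.0564 with the clone term). Without clone 3 its change was -0.83 and passed (edgeR adjusted p = 0.00180). Hnrnpr, the paralog of Syncrip, was at -0.08 ± 0.10 and Msi1 at 0.27 ± 0.19 on the log2 scale. Elavl3 read at most 0.504 CPM, Igf2bp1 at 3 to 32 counts a library and Ybx2 at 0 to 5 counts, and Elavl4 had 11 counts in all 10 libraries.

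None of the 7 tested partners of Rbm39, in the DCAF15 ligase and among early splicing factors, passed over the 3 clones with or without the clone term, and their log2 changes ranged from -0.26 for U2af2 to 0.14 for Dda1. Of the leukemia mRNAs that these proteins are known to bind or methylate, 4 of 8 tested passed with the clone term, 3 lower and 1 higher. Beside them, 12.4% of all genes passed that fit, and without the clone term 0 of the 8 passed over the 3 clones by edgeR. None of the 4 passed with the clone term when clone 1 or clone 2 was left out. Cdk6, a G1 kinase, read 1769, 1478 and 1669 CPM without DOX and 1124, 975 and 1398 CPM with DOX. Its log2 fold change was -0.48 ± 0.15 (edgeR adjusted p = 0.139, and 0.0289 with the clone term). Myc was at -0.45 ± 0.15 (0.169 and 0.0359) and Hoxa9 at -0.35 ± 0.14 (0.213 and 0.0428). Tnfrsf1b, a TNF receptor whose mRNA is an m6A-dependent target in leukemia, was higher at 0.44 ± 0.14 (0.153 and 0.0282). Its UTR held 2 miR-139-5p 8mers, where 34.7% of UTRs of like length held a miR-139-5p match. The UTRs of Cdk6 and Hoxa9, which were lower, also held miR-139-5p 8mers, 3 and 1 of them. At their lengths 90.2% and 17.6% of UTRs held a miR-139-5p match. The Myc UTR held no match. Myb, Bcl2 and Sp1 did not pass, and Ikzf2, with 6 counts in all, was not measured.

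**Figure D5:**
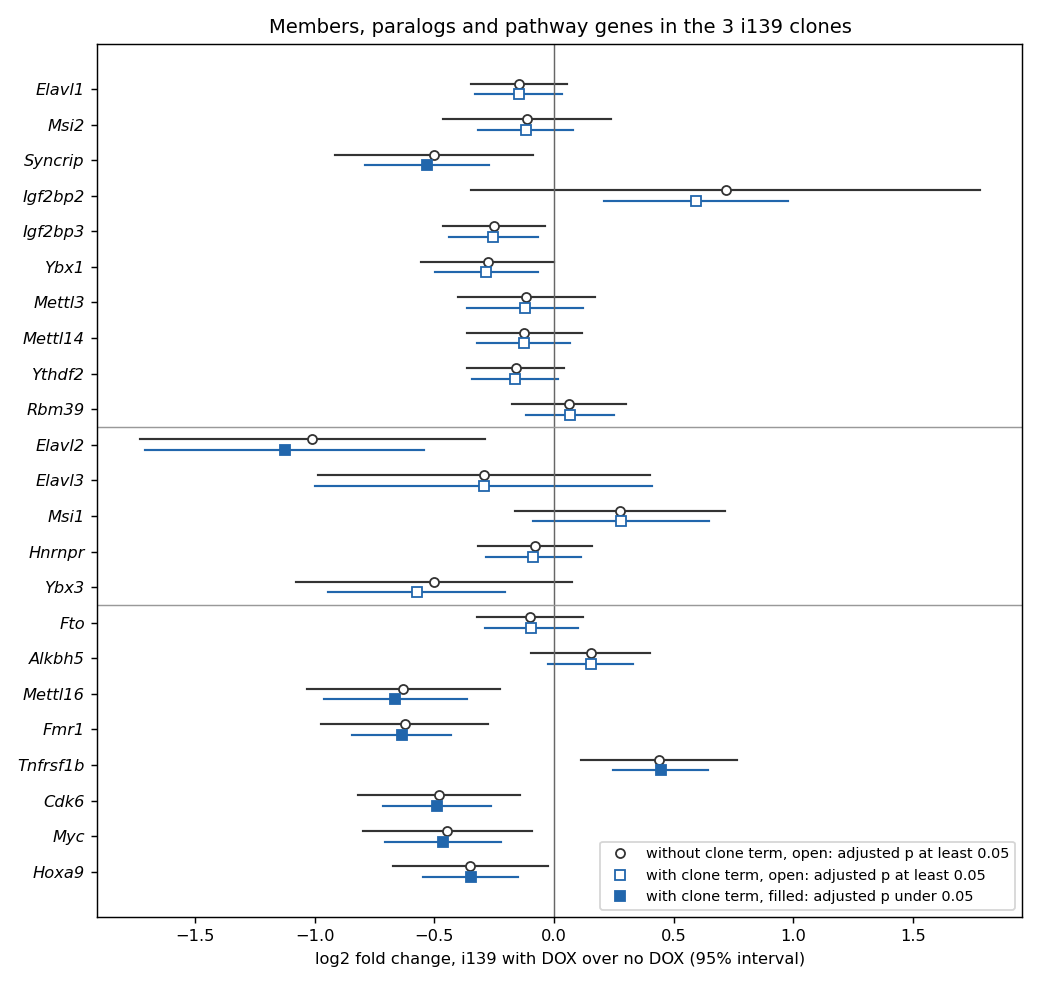
Log2 fold change of MLL-AF9-i139 with DOX over no DOX with its 95% interval for the 10 genes, 5 of their paralogs and 8 pathway genes, without a clone term (black circles) and with it (blue squares), filled where the edgeR adjusted p was under 0.05. No black circle is filled, and Syncrip, at -0.53, is the filled blue square among the top 10.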

How the data were processed

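RNA sequencing of 10 mouse libraries (6 from 3 MLL-AF9-i139 clones and 4 from 1 MLL-AF9-ieGFP clone, DOX-treated or untreated) was analysed. Libraries were made from ribosomal RNA-depleted total RNA. According to the study's methods and the submitters' processing notes, reads were checked with FastQC 0.11.8, mapped to GRCm38 (mm10) with STAR 2.5.3e and counted per gene with FeatureCounts 1.6.0 on GENCODE M15. Strand and overlap settings were not given in the sources used here. The deposited values are raw counts per gene. Of 2 deposited tables, identical for these libraries (0 differing values), 1 was used, and 14 columns of other samples were left out.

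Genes with at least 10 counts over the libraries of a fit were tested with edgeR 4.0.16 (R 4.3.3), quasi-likelihood, TMM, Benjamini-Hochberg adjustment over all tested genes, threshold 0.05. The 6 MLL-AF9-i139 libraries were fitted without a clone term, as the study's methods name none. MLL-AF9-ieGFP and the interaction came from 1 fit of all 10 libraries. Alternatives were DESeq2 1.42.0, RLE factors, other filters, a clone or culture time term, all 10 libraries, and each clone or time left out. Same-numbered MLL-AF9-i139 libraries are the same clone by their labels, and their deviations from group means correlated at 0.356, 0.269 and 0.393 over 20269 genes, against -0.297 to -0.0382 between clones. Replicates differed by more than sampling noise (chi-square per gene 13.5 to 112). On simulated counts with clone effects of a set size, 10% of genes changed by 1 on the log2 scale were recovered without the clone term and 99% with it. False calls were 0% and 7.01% of calls. Without simulated clone effects, the fit without the clone term recovered 99%. Every simulated clone had the same DOX change, so the simulation does not cover a clone that responds less than the others.

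CPM use TMM factors of all 10 libraries; changes of single clones are log2 CPM differences with a prior count of 2. Symbols, overlaps and UTRs came from GENCODE M21 on the same build, microRNAs from RefSeq (GRCm38.p6). Besides the 10 genes, those named were at most 4 of each pathway list with an adjusted p under 0.05 with or without the clone term, all measured paralogs, both erasers, the 3 genes most like Elavl1, and overlapping or copied genes. U2af2 and Dda1 were named as the ends of a range, after their values were seen. One paralog on the list was not analysed here. The values of 1 gene of the leukemia mRNA list are not reported here. The genes and lists were chosen with earlier results of these data known. Total counts of 35133308 to 47089725 per library set the depth.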

Additional observations from a re-analysis of the deposited data

How the results depend on the processing

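In MLL-AF9-i139 the 12 genes called of 19223 became 1556 with DESeq2, 562 with no filter on low counts, 6 with a stricter filter, 2381 with the replicate block by clone and 1234 with all 10 libraries in 1 fit. Leaving out 1 clone gave 0 to 3981 genes, and with the replicate block 324 to 7974 (580 without clone 2), the highest without clone 3 each time. The 0 members called became 1 with the replicate block, 0 to 3 with 1 clone left out and 0 to 8 with both. The cause of these differences was not tested. In MLL-AF9-ieGFP the 0 genes called became 1 with DESeq2 and 1 with no filter. The interaction called 1 gene, 82 with DESeq2, 71 with no filter, 0 with a stricter filter, 38 with the replicate block and 0 to 2011 with 1 clone or time left out. With 1 clone or time left out, the interaction of Ythdf2 ranged from -0.13 to 0.0093, turning positive without the 48 h MLL-AF9-ieGFP libraries, and that of Rbm39 from -0.0352 to 0.28, turning negative without the 72 h ones. No member changed direction in MLL-AF9-i139 in the 12 alternatives. Elavl1 ranged from -0.20 to -0.11 and Syncrip from -0.68 to -0.40 on the log2 scale. Among named genes, the replicate block changed the calls of Syncrip, Mettl16, Fmr1, Elavl2, Cdk6, Myc, Hoxa9, Tnfrsf1b and Ercc6l (edgeR adjusted p = 0.151, and 0.0404 with the block) and no other. With 3 clones, 1 of them treated longer, the interval of the Elavl1 change includes 0, at 8107 or more counts in each library.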
